A study of Mus musculus with 42 samples.

Results

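Of the 13 proteins that mouse mitochondrial DNA (mtDNA) encodes, 10 were followed in leukaemia cells through mRNA and ribosome footprints. Their genes were mt-Nd1, mt-Nd2, mt-Nd4, mt-Nd5, mt-Nd6, mt-Cytb, mt-Co1, mt-Co2, mt-Co3 and mt-Atp6, taken by name from 55487 gene rows in both count tables by a rule that uses no measured value. All 10 were counted in all 42 libraries and all 10 passed the filter on low counts. The remaining protein genes of mtDNA, mt-Nd3, mt-Nd4l and mt-Atp8, and the ribosomal RNA genes mt-Rnr1 and mt-Rnr2 were read beside them.

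Each of these proteins except mt-Atp6 and mt-Atp8 is a core subunit of the respiratory chain, which passes electrons to oxygen and stores the energy as a proton gradient. mt-Atp6 and mt-Atp8 belong to the ATP synthase, which draws on that gradient. All of these proteins are translated inside mitochondria by ribosomes built on mt-Rnr1 and mt-Rnr2, from mRNAs cut out of long transcripts of both mtDNA strands. Apart from those that mtDNA itself encodes, their partner subunits are encoded in the nucleus and imported. So are the protein factors that copy, transcribe and translate mtDNA. Myeloid leukaemia cells are known to draw on respiration for energy.

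Libraries came from 21 mice with MLL-AF9 leukaemia, a transplanted acute myeloid leukaemia driven by a fusion gene, labelled wild type in genotype. The cells expressed green fluorescent protein (GFP), and luciferase from the β-actin promoter, and came from a terminally ill mouse whose leukaemia had been grown in culture, so all groups share 1 source of cells. Recipients were males aged 8 to 10 weeks, injected without preconditioning. Feed either held a standard set of amino acids or lacked leucine, isoleucine and valine, the branched-chain amino acids (BCAA), to ask how the diet changes expression and translation after chemotherapy. They received injections of PBS as vehicle or of 5+3, which was cytarabine at 100 mg/kg daily for 5 days with doxorubicin at 3 mg/kg on the first 3 days. Cytarabine is a nucleoside analogue that blocks DNA synthesis, and doxorubicin is an anthracycline that poisons topoisomerase. Of the mice on the amino acid diet, 5 had vehicle and 4 had 5+3; of those on the BCAA-free diet, 5 had vehicle and 7 had 5+3. Viable GFP-positive cells were sorted from bone marrow when the response to chemotherapy was greatest, and a lysate of each mouse gave an mRNA library by Smart-seq2 and a footprint library, the fragments that ribosomes shield from RNase I. Mice of the amino acid vehicle group carry a suffix B in their names that the labels leave unexplained, and whatever it marks cannot be told apart from that group.

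Total counts ran from 30996200 to 70437713 in the mRNA libraries (median 48804734) and from 2697092 to 8863472 in the footprint libraries (median 4683466). All 11 markers of the leukaemia, among them Mpo, Elane, Kit, Hoxa9 and Meis1, were detected, and together they took 0.722% to 1.27% of footprint counts over the 21 mice. In an earlier analysis of these data the mRNA libraries of 4 mice stood apart on the first principal component (BCAA-free vehicle replicates 1, 2 and 5 and BCAA-free 5+3 replicate 7), and the counts of calls for 5+3 on the BCAA-free diet are also given without them. Without the 4 mice the BCAA-free vehicle group holds only replicates 3 and 4, so a call lost in that setting does not by itself show a smaller change. Levels below are CPM, counts relative to a library size scaled by the TMM method, and a fold change is a share of the library: in sorted bulk cells, fewer cells of a kind and less RNA per cell cannot be told apart.

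On mtDNA the 10 genes lie, in the GRCm38 assembly, between mt-Nd1 at MT:2751-3707 and mt-Cytb at MT:14145-15288. The complex I subunits mt-Nd2, mt-Nd4 and mt-Nd5 are at MT:3914-4951, MT:10167-11544 and MT:11742-13565. The complex IV subunits mt-Co1, mt-Co2 and mt-Co3 are at MT:5328-6872, MT:7013-7696 and MT:8607-9390, and mt-Atp6, a membrane subunit of the ATP synthase (complex V), at MT:7927-8607. The complex I subunit mt-Nd6 at MT:13552-14070 is the only protein gene on the opposite strand, and its end overlaps that of mt-Nd5. The strand setting of the counting is not given, so sense and antisense reads at mt-Nd6 cannot be separated.

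**Figure D1:**
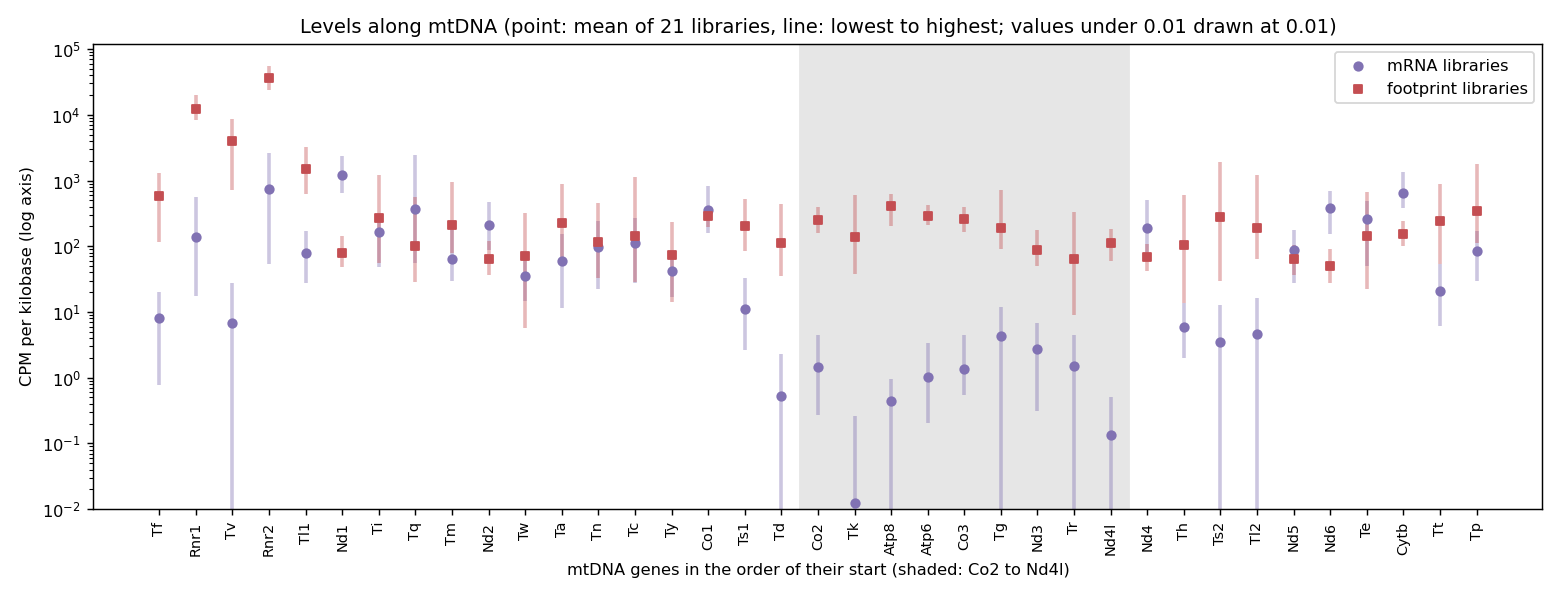
Level of the 37 mtDNA genes in the order of their start (x axis) as CPM per kilobase on a log axis, as the mean (point) and the range (line) of 21 mRNA and 21 footprint libraries. From Co2 to Nd4l, shaded, mRNA values drop by orders of magnitude while footprint values stay near those of neighbouring genes; the mRNA mean is 360 at mt-Co1 and 1.44 at mt-Co2.

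A stretch of mtDNA was nearly empty in the mRNA libraries. The 9 genes from mt-Co2 to mt-Nd4l (MT:7013-10173, 6 protein genes and 3 tRNA genes) held 95 to 383 mRNA counts in total per library (median 180), against a median of 141350 for the 7 listed genes outside it. Footprints in the stretch had a median of 3404 counts per library. Of the 10 genes, mt-Co2, mt-Co3 and mt-Atp6 lie in the stretch, with means of 44.5, 47.5 and 31.2 mRNA counts per library and of 834, 997 and 973 footprint counts. The tRNA gene mt-Td just before the stretch (MT:6942-7011) was also low, with a median of 1 mRNA count (0 to 6). Whether the loss reaches into mt-Co1 or mt-Nd4 at the edges cannot be told from counts per gene.

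The same genes shared their footprint counts with rows of another name. The row of Gm28661 matched mt-Co2 within 1 count in all 21 footprint libraries, Gm28437 matched mt-Co3 within 1 count, and Gm10925 matched mt-Atp6 within 11 counts, all inside a tolerance of 5%. Gm10925 is annotated by RefSeq as a pseudogene of 681 bp at 1:24613971-24614651, the same length as mt-Atp6 itself, and reads of the gene and of its nuclear copy cannot be told apart from these counts. In mRNA the rows did not match: Gm28661 averaged 107 counts and Gm10925 averaged 53.8. How reads that fit several places were counted is not given, and its part in the empty stretch was not tested. Values of mt-Co2, mt-Co3 and mt-Atp6 that use mRNA counts are therefore uncertain, and summaries are also given over the 7 genes outside the stretch. Footprint levels of the same genes are uncertain too, as their footprint counts are shared with the other rows.

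Footprint levels, divided by gene length, ranked the subunits of complexes IV and V above those of complex I. The order was mt-Atp6 (287 CPM per kilobase ± 64.6, SD, n = 21), mt-Co1 (284 ± 59.3), mt-Co3 (258 ± 66.8), mt-Co2 (248 ± 66.3), mt-Cytb (152 ± 36.7), mt-Nd1 (77.8 ± 22.8), mt-Nd4 (68.7 ± 18.7), mt-Nd2 (64.6 ± 19.3), mt-Nd5 (64.2 ± 15.5) and mt-Nd6 (49.3 ± 13.6). Steps from mt-Co2 to mt-Cytb and from mt-Cytb to mt-Nd1 held in 21 of 21 libraries, so the complex III subunit stood between mt-Co2 and mt-Nd1 in every mouse. Neighbours were less clear elsewhere: mt-Atp6 exceeded mt-Co1 in 12 of 21 libraries and mt-Nd2 exceeded mt-Nd5 in 8. The places of mt-Atp6, mt-Co3 and mt-Co2 rest on footprint counts shared with other rows and are uncertain.

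The mRNA order was another. mt-Nd1 led at 1221 CPM per kilobase ± 499 (SD, n = 21), followed by mt-Cytb at 655 ± 253, mt-Nd6 at 380 ± 165, mt-Co1 at 360 ± 165, mt-Nd2 at 213 ± 99.4, mt-Nd4 at 190 ± 99.4 and mt-Nd5 at 87.5 ± 35.8. mt-Nd1 exceeded mt-Cytb in 21 of 21 libraries, while mt-Nd6 exceeded mt-Co1 in 11 of 21. The ratio of footprint CPM to mRNA CPM thus differed widely between genes of the same strand: its median over mice was 0.0685 for mt-Nd1, 0.255 for mt-Cytb, 0.374 for mt-Nd2, 0.396 for mt-Nd4, 0.678 for mt-Nd5 and 0.829 for mt-Co1. Both kinds of library use different chemistry, so a ratio under 1 is not a rate of translation.

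Footprints of the respiratory chain genes fell with 5+3 on the BCAA-free diet. By edgeR's quasi-likelihood test, 8 of 10 were lower than under vehicle on the same diet, against 11.9% of all 15723 genes tested that were lower and 20.6% that changed in either direction. The 10 log2 changes ran from -0.72 to -0.30 with a median of -0.57, where the median of all genes was -0.02. For 5 of the 10, the 7 treated mice and the 5 vehicle mice did not overlap; 4.74% of all genes were lower without overlap, and 8.06% were without overlap in either direction. By complex, the count was 3 of 3 for complex IV, 1 of 1 for complexes III and V, and 3 of 5 for complex I.

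The largest changes among the 10 were those of mt-Co3 and mt-Co2, both of complex IV. mt-Co3, a core subunit of cytochrome c oxidase, stood at 315, 193, 220, 308 and 291 CPM in the BCAA-free vehicle mice, and between 127 and 191 with a median of 160 in the 7 mice given 5+3. Every treated mouse was below every vehicle mouse, although BCAA-free vehicle replicate 2 came within a few CPM of the highest treated mouse. The change was 1.65-fold lower (log2 -0.72 ± 0.13, SE, adjusted p = 0.000406).

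mt-Co2, which carries the copper centre that first receives electrons from cytochrome c, stood at 272, 185, 203, 238 and 229 CPM under vehicle and between 107 and 173 with a median of 130 under 5+3. Again no treated mouse reached a vehicle mouse. The fall was 1.65-fold (log2 -0.72 ± 0.13, SE, adjusted p = 0.000799). mt-Co1, the catalytic subunit and the most heavily counted of the 10, stood at 618, 405, 461, 582 and 569 CPM under vehicle and between 304 and 418 with a median of 354 under 5+3. One treated mouse, the highest, passed the lowest vehicle mouse, so the groups overlapped. The fall was 1.46-fold (log2 -0.55 ± 0.12, SE, adjusted p = 0.00214).

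mt-Cytb, cytochrome b and the only mtDNA-encoded subunit of complex III, stood at 275, 166, 191, 241 and 232 CPM under vehicle and between 117 and 157 with a median of 145 under 5+3. The groups did not overlap, and the fall was 1.57-fold (log2 -0.65 ± 0.12, SE, adjusted p = 0.000706). mt-Atp6, which with a nuclear-encoded ring forms the proton path of the ATP synthase, stood at 292, 192, 243, 270 and 265 CPM under vehicle and between 145 and 183 with a median of 171 under 5+3. Its groups did not overlap either. It fell 1.54-fold (log2 -0.62 ± 0.11, SE, adjusted p = 0.000601).

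Of the complex I subunits, which line the proton-pumping membrane arm, 3 of 5 passed. mt-Nd5 stood at 191, 120, 120, 160 and 145 CPM under vehicle and between 67.2 and 119 with a median of 98.0 under 5+3. Its groups touched without overlapping, the highest treated mouse lying just under the lowest vehicle mouse. It fell 1.48-fold (log2 -0.56 ± 0.14, SE, adjusted p = 0.0087).

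For mt-Nd1, the treated mice lay between 46.8 and 70.2 CPM and the vehicle mice between 69.3 and 108, and it fell 1.48-fold (log2 -0.57 ± 0.19, SE, adjusted p = 0.0356). For mt-Nd4, the ranges were 57.9 to 103 and 93.6 to 147 CPM, and it fell 1.46-fold (log2 -0.54 ± 0.18, SE, adjusted p = 0.035). Both pairs of ranges overlapped at their edges. mt-Nd2 had a log2 change of -0.50 ± 0.21 (SE, adjusted p = 0.0997) and mt-Nd6, the least counted, one of -0.30 ± 0.21 (SE, adjusted p = 0.332), so neither passed.

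**Figure D2:**
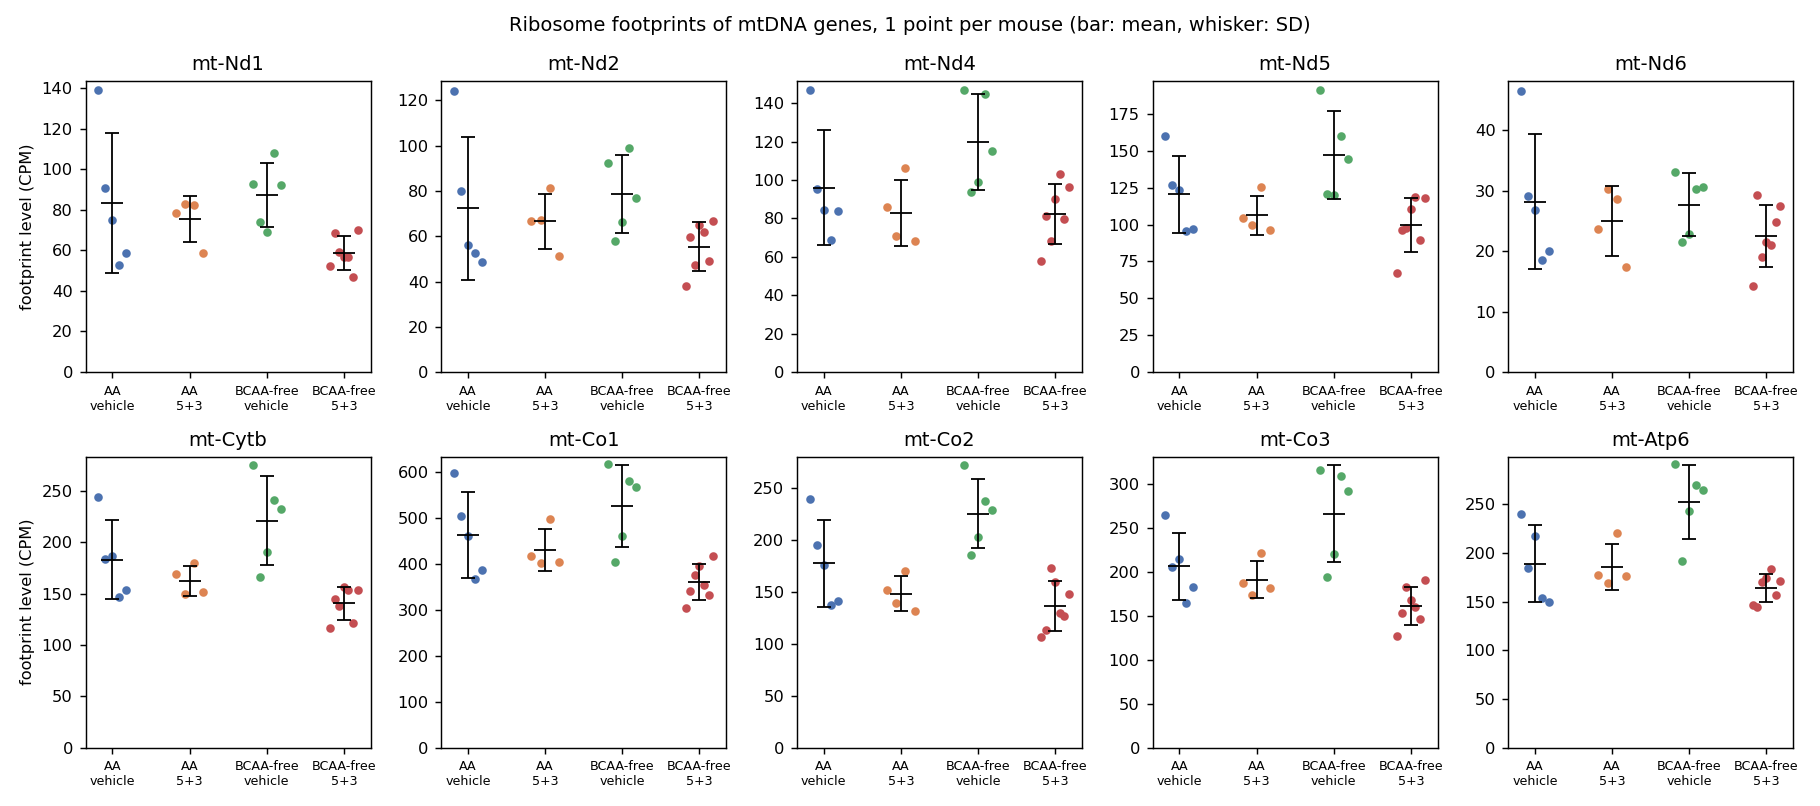
Footprint level in CPM (y axis, from 0) of the 10 genes in each of the 4 groups (x axis), 1 point per mouse with the group mean (bar) and SD (whisker). In the BCAA-free groups the 5+3 points lie below the vehicle points for mt-Nd5, mt-Cytb, mt-Co2, mt-Co3 and mt-Atp6 with no overlap, and the amino acid groups overlap for all 10 genes.

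The 3 mtDNA proteins outside the list moved the same way. mt-Nd4l, a small complex I subunit, fell (log2 -0.76 ± 0.18, SE, adjusted p = 0.00525), as did mt-Nd3 of complex I (log2 -0.63 ± 0.21, adjusted p = 0.0347) and mt-Atp8, the accessory partner of mt-Atp6 (log2 -0.63 ± 0.19, adjusted p = 0.0242). Footprint counts of mt-Nd4l and mt-Nd3 were shared with the rows Gm10222 and Gm28438. With the 3 genes, 11 of the 13 mtDNA proteins were lower. None of these 3 passed without the 4 mice that stood apart, where the count was 5 of 13 (adjusted p = 0.0992 for mt-Nd4l, 0.203 for mt-Nd3 and 0.266 for mt-Atp8). With single mice left out, mt-Nd4l passed in 21 of 21 fits, mt-Atp8 in 18 and mt-Nd3 in 13, and the count ran from 7 (without BCAA-free vehicle replicate 1, 4 or 5) to 12.

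Without the 4 mice whose mRNA stood apart, 5 of 10 genes were lower in place of 8, and 1.54% of all genes were lower. mt-Co1, mt-Co2, mt-Co3, mt-Cytb and mt-Atp6 passed in all 8 alternative analyses and with each of the 21 mice left out in turn. For mt-Co1 and mt-Co2 this was narrow, as the largest adjusted p over the 8 alternatives was 0.04973 and 0.04999. It was 0.0178 for mt-Co3, 0.0381 for mt-Cytb and 0.0311 for mt-Atp6. mt-Nd1, mt-Nd4 and mt-Nd5 did not pass without the 4 mice, a setting that keeps only BCAA-free vehicle replicates 3 and 4. Over the 8 alternatives the log2 change ran from -0.61 to -0.53 for mt-Nd1, from -0.58 to -0.51 for mt-Nd4 and from -0.57 to -0.51 for mt-Nd5. Other markers moved with this comparison. The summed share of the 7 erythroid genes in footprints was 0.0115% to 0.0214% in BCAA-free vehicle mice and 0.000767% to 0.0026% after 5+3, that of 7 neutrophil genes 0.0266% to 0.0411% and 0.00267% to 0.0262%, and that of 7 monocyte genes 0.0172% to 0.0241% and 0.00455% to 0.0139%. Red cells had been lysed before the sort. None of the erythroid genes was at 0 in all libraries, and Hba-a1 had the highest median, 24 CPM over the 21 mice. The leukaemia markers took 0.832% to 1.12% and 0.861% to 1.10%. The part of these markers in the result was not tested.

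On the amino acid diet, no change in the footprints of the 10 genes passed the test. The count was 0 of 10, where 6.61% of all genes did; none had an unadjusted p under 0.05 in edgeR, and none passed in DESeq2. All 10 log2 changes were below 0, from -0.26 for mt-Co2 to -0.03 for mt-Atp6, with a median of -0.13. Group ranges overlapped for 10 of 10 genes, where 10.3% of all genes were without overlap. mt-Co3 stood at 265, 205, 214, 164 and 182 CPM under vehicle and at 188, 174, 221 and 182 under 5+3, with full overlap. The interval of its log2 change (± 1.96 SE) was -0.39 to 0.18, and that of mt-Cytb was -0.44 to 0.10, so falls of the size seen in mt-Co3 on the BCAA-free diet lay outside both. The SEs of the 10 genes ran from 0.13 to 0.25 here, so some intervals were wider. Whether the diets differed was tested as the interaction below. Amino acid vehicle replicate 1 was the highest of its group for 10 of 10 genes, and replicate 4 the lowest for 8.

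**Figure D3:**
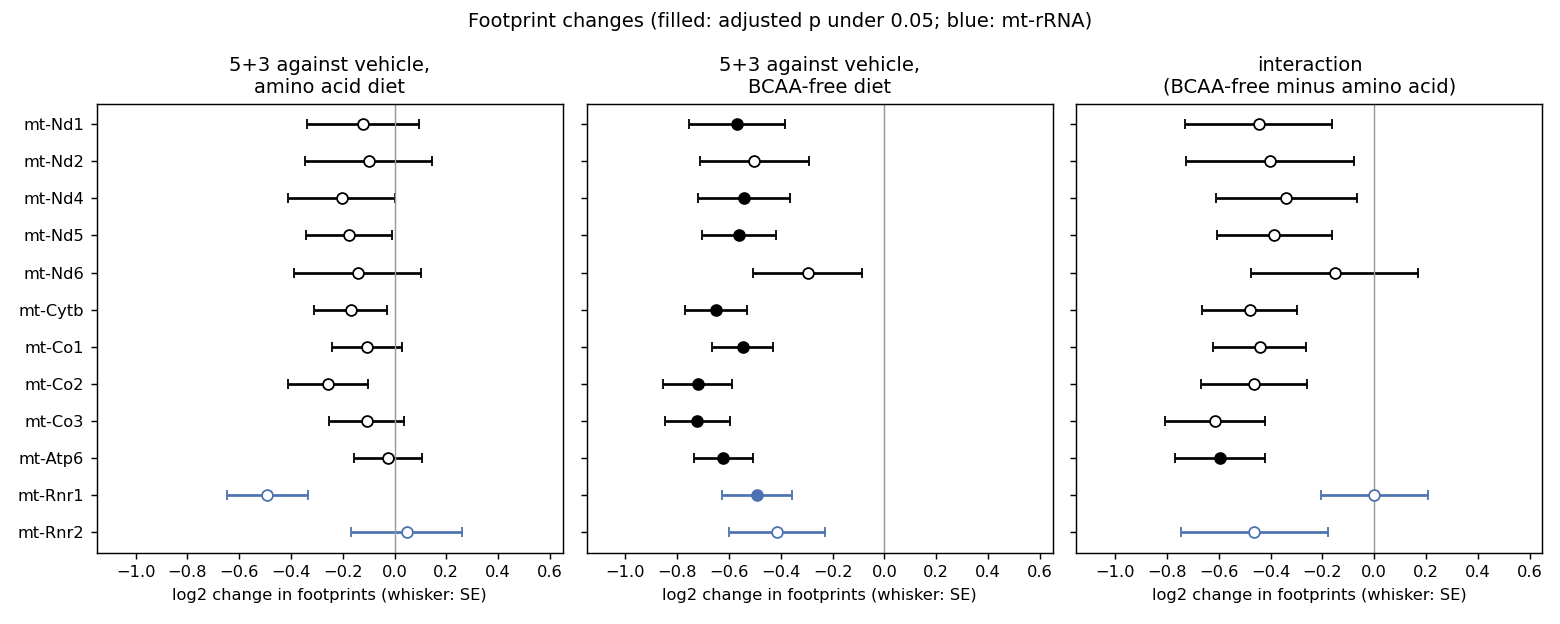
Log2 change in footprints with its SE (x axis) for the 10 genes in black and mt-Rnr1 and mt-Rnr2 in blue (y axis), for 5+3 against vehicle on each diet and for the difference between these changes. Filled points passed at an adjusted p under 0.05: 8 genes and mt-Rnr1 on the BCAA-free diet, none on the amino acid diet, and mt-Atp6 alone in the interaction.

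The difference between the diets in the response to 5+3 was tested as an interaction. It passed for 1 of 10 genes, mt-Atp6 (log2 -0.60 ± 0.17, SE, adjusted p = 0.0367), against 3.8% of all genes that were lower and 7.09% that passed in either direction. mt-Co3 lay at the threshold (log2 -0.62 ± 0.19, SE, adjusted p = 0.0504). All 10 values were below 0, with a median of -0.44. Unadjusted, 5 of them had a p under 0.05, as did 23.6% of all genes. For the 9 genes other than mt-Atp6 a difference between diets was not shown. The number that passed ran from 0 to 5 when single mice were left out: it was 5 without amino acid vehicle replicate 1, 3 without BCAA-free vehicle replicate 2, and 2 without BCAA-free vehicle replicate 3 or BCAA-free 5+3 replicate 3 or 7. It was 0 without amino acid vehicle replicate 4 or 5, amino acid 5+3 replicate 1 or 3, BCAA-free vehicle replicate 1, 4 or 5, or BCAA-free 5+3 replicate 6. Without the 4 mice above it was 0.

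Set side by side, the group means show that the BCAA-free vehicle mice had the highest footprint levels for 9 of the 10 genes. mt-Atp6 averaged 189 CPM ± 39.8 (SD, n = 5) in amino acid vehicle, 186 ± 23.4 (n = 4) in amino acid 5+3, 252 ± 37.9 (n = 5) in BCAA-free vehicle and 164 ± 14.7 (n = 7) in BCAA-free 5+3. mt-Nd6 was the exception, with 28.2 ± 11.2 in amino acid vehicle and 27.7 ± 5.18 in BCAA-free vehicle. Under vehicle, the BCAA-free diet against the amino acid diet gave 10 log2 differences above 0, from 0.01 for mt-Nd6 to 0.42 for mt-Atp6 (median 0.28). None of the 10 passed in edgeR, where 2.04% of all genes did. Unadjusted, 4 of them had a p under 0.05, as did 17.5% of all genes. DESeq2 called 1, and the smallest adjusted p in edgeR was 0.0694 for mt-Atp6. Leaving out amino acid vehicle replicate 1 or BCAA-free vehicle replicate 2 gave 1 call. The ranges of these groups overlapped for 10 of 10 genes, with 4.82% of all genes free of overlap.

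Under 5+3, the BCAA-free diet against the amino acid diet gave 10 log2 differences below 0, from -0.36 for mt-Nd1 to -0.01 for mt-Nd4 (median -0.19). None passed, none had an unadjusted p under 0.05 in edgeR and DESeq2 called none. Of all genes, 28.3% passed in this comparison and 39.4% had an unadjusted p under 0.05. Ranges overlapped for 10 of 10 genes, with 17.5% of all genes free of overlap. Each pair of diet and treatment comparisons shares mice, so these directions are not independent of one another.

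Mitochondrial rRNA was compared with the protein genes in the same footprint libraries. mt-Rnr1 and mt-Rnr2 together took 8.85%, 5.92%, 8.66%, 5.47% and 5.21% of footprint counts in the amino acid vehicle mice and 5.66%, 5.57%, 8.36% and 5.89% with 5+3. On the BCAA-free diet they took 9.58%, 8.09%, 9.18%, 7.97% and 6.98% under vehicle, and between 4.68% and 7.84% with a median of 6.13% in the 7 mice given 5+3. The BCAA-free vehicle mice were the highest as a group, as they were for the protein genes, and the groups overlapped. mt-Rnr2 alone had its highest mean there (7.005%, against 5.39% in amino acid vehicle mice). mt-Rnr1 did not, with 1.36% there and 1.43% in amino acid vehicle mice.

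The difference with 5+3 on the BCAA-free diet was -2.04 percentage points, with a two-sided exact permutation p of 0.0152 (5 against 7 mice). Adjusted over 8 comparisons of the share it was 0.121 and did not pass. On the amino acid diet the difference was -0.45 points (exact permutation p = 0.73), and the diets differed by 1.54 points under vehicle (exact permutation p = 0.119) and by -0.05 under 5+3 (exact permutation p = 0.945). None of these passed. The design could have given p-values down to 0.00253 for 5 against 7 mice and 0.0159 for 5 against 4.

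The rRNAs of the small and the large subunit were also tested one by one. In edgeR, mt-Rnr1, the 12S rRNA of the small subunit, had the same log2 change of -0.49 on both diets. It passed on the BCAA-free diet (SE 0.13, adjusted p = 0.0118, groups without overlap) and missed the threshold on the amino acid diet (SE 0.16, adjusted p = 0.0552), with an interaction of 0.00 ± 0.21 (SE). mt-Rnr2, the 16S rRNA of the large subunit, had log2 changes of -0.42 ± 0.19 on the BCAA-free diet (SE, adjusted p = 0.115) and 0.05 ± 0.21 on the amino acid diet (SE, adjusted p = 0.931). The call for mt-Rnr1 was lost without the 4 mice named above.

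The protein genes were then set against mitochondrial rRNA. The 10 genes summed to 23.3 footprint counts per 1000 mt-rRNA counts ± 4.44 (SD, n = 5) in BCAA-free vehicle mice and 21.1 ± 4.46 (n = 7) after 5+3. On the amino acid diet they summed to 24.2 ± 3.28 (n = 5) and 22.7 ± 2.59 (n = 4). Group ranges overlapped for 10 of 10 genes in all 4 comparisons of this ratio. Over all genes, 10.9% of ratios to mt-rRNA were without overlap for 5+3 on the BCAA-free diet, 1.81% for 5+3 on the amino acid diet, 2.66% for the diets under vehicle and 3.94% under 5+3.

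Gene by gene, the difference of this ratio with 5+3 on the BCAA-free diet had a median of -0.13 on the log2 scale, against -0.57 for the footprint level itself. The lowest were mt-Co2 and mt-Co3 (-0.29 and -0.27), then mt-Cytb (-0.20) and mt-Atp6 (-0.17), while mt-Nd6 was at 0.13. These ratios carry the spread of mt-Rnr2 and were not tested one by one.

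**Figure D4:**
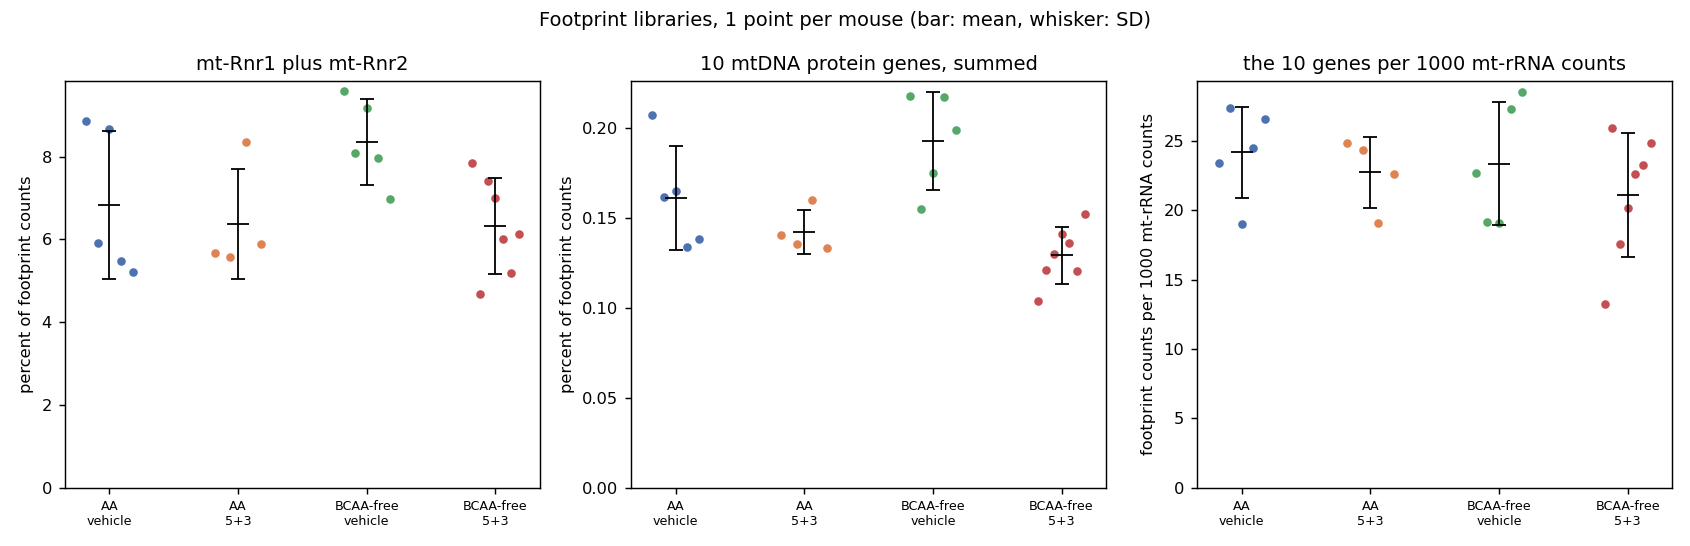
Share of footprint counts in percent taken by mt-Rnr1 plus mt-Rnr2 (left) and by the 10 protein genes (middle), and their ratio per 1000 mt-rRNA counts (right), 1 point per mouse in 4 groups with mean (bar) and SD (whisker). Both shares are highest on average in BCAA-free vehicle mice, while the mean ratio lies between 21.1 and 24.2 in all 4 groups with wide overlap.

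In the mRNA libraries no change of the 10 genes was detected. None passed in edgeR in any of the 5 comparisons, and DESeq2 called none. None had an unadjusted p under 0.05 either, where 5.89% to 27.1% of all genes did, depending on the comparison. Of all 21114 genes tested, 8.56% passed for 5+3 on the BCAA-free diet, 0.0616% for 5+3 on the amino acid diet, 1.24% for the diets under 5+3, 0.0758% for the interaction and 0 for the diets under vehicle. Group ranges overlapped for 10 of 10 genes in each of the 4 comparisons between groups. Over all genes, 2.82% were free of overlap for 5+3 on the BCAA-free diet, 4.24% for 5+3 on the amino acid diet, 1.78% for the diets under vehicle and 4.91% for the diets under 5+3. On the BCAA-free diet with 5+3, the 7 genes outside the empty stretch had log2 changes from -0.17 to 0.65 with a median of 0.03.

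The catalytic subunit mt-Co1, whose footprints fell, had mRNA levels of 709, 300, 249, 460 and 391 CPM under BCAA-free vehicle and between 369 and 1049 with a median of 624 after 5+3. The mRNA values of the treated mice thus lay mostly above those of the vehicle mice, with overlap (log2 0.56 ± 0.33, SE, adjusted p = 0.288). For mt-Nd5 the levels were 130, 91.4, 204, 113 and 56.6 CPM and then 121 to 327 with a median of 167 (log2 0.65 ± 0.33, SE, adjusted p = 0.211). mt-Cytb showed 1235, 653, 433, 647 and 699 CPM and then 447 to 1231 with a median of 783 (log2 0.09 ± 0.29, SE, adjusted p = 0.87).

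The spread between mice was wider than in footprints. Within groups the SD of log2 CPM was 0.51 to 0.69 in mRNA for the 7 genes outside the stretch and 0.21 to 0.39 in footprints for all 10. The interval of the mRNA change (± 1.96 SE) was -0.67 to 0.53 for mt-Nd1 and -0.48 to 0.66 for mt-Cytb, so a fall as large as that of their footprints was inside the first and outside the second. Single mice carried much of the spread: amino acid 5+3 replicate 4 was the highest of its group for 10 of 10 genes in mRNA, and BCAA-free vehicle replicate 1 for 9.

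On the amino acid diet, the 7 genes had mRNA changes with 5+3 from 0.36 to 0.61, all above 0 (median 0.42). For the diets under vehicle the range was -0.26 to 0.63 (median 0.19), led by mt-Nd1, with 1068, 733, 873, 658 and 1027 CPM on the amino acid diet and 1995, 1455, 1029, 1084 and 1165 on the BCAA-free diet (log2 0.63 ± 0.33, SE, adjusted p = 0.478). Under 5+3 the range was -0.46 to 0.19. The mt-rRNA share of mRNA counts averaged 0.185% ± 0.185 (SD, n = 5), 0.117% ± 0.0732 (n = 4), 0.147% ± 0.128 (n = 5) and 0.0885% ± 0.0872 (n = 7) in the order of the groups given at the start. None of its 4 comparisons passed (exact permutation p from 0.364 to 0.754).

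**Figure D5:**
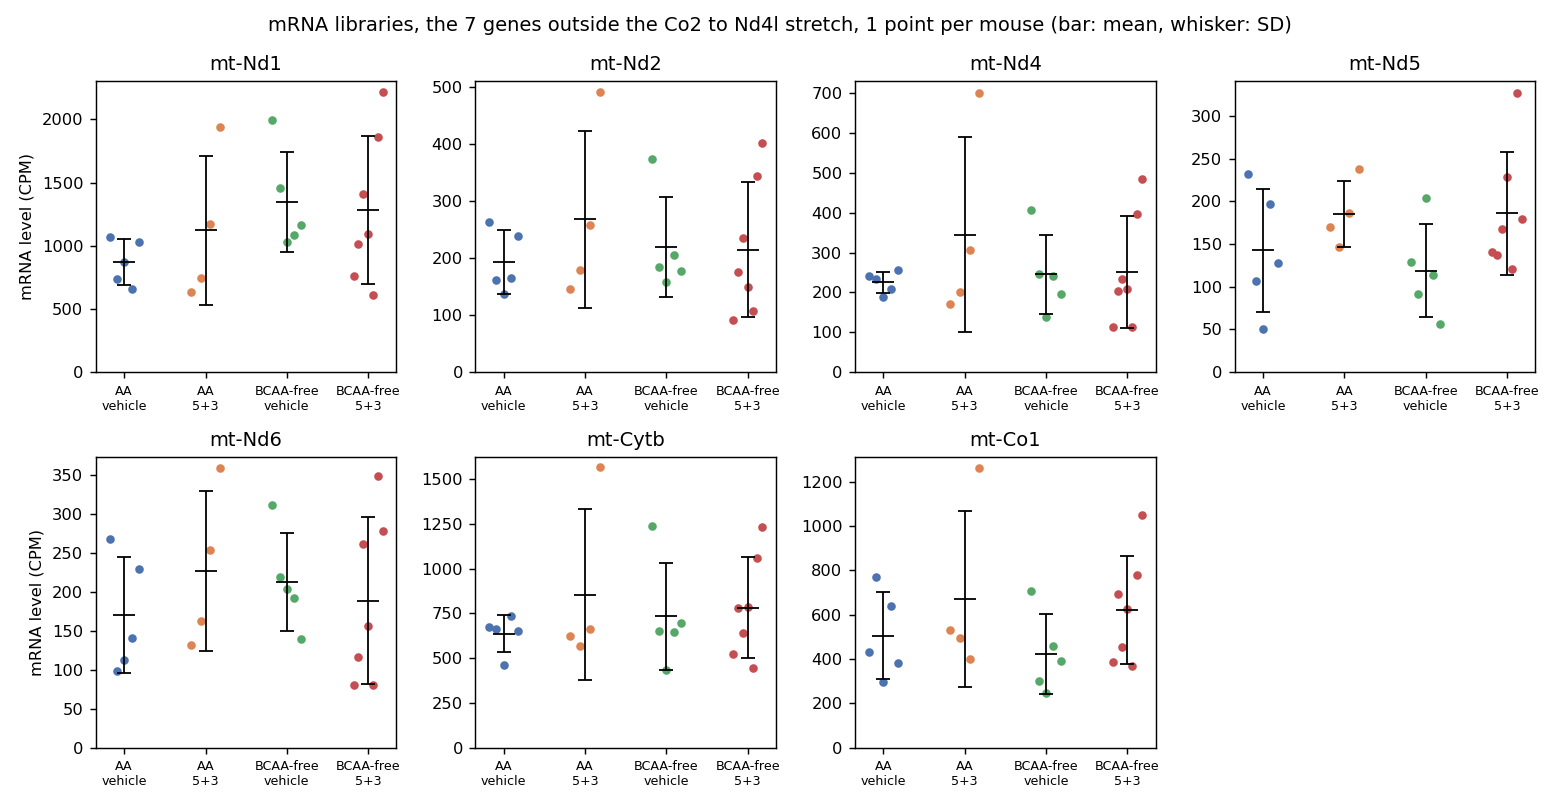
mRNA level in CPM (y axis, from 0) of the 7 genes outside the mt-Co2 to mt-Nd4l stretch in each group (x axis), 1 point per mouse with mean (bar) and SD (whisker). All groups overlap for all 7 genes, and in the amino acid 5+3 group the highest point is replicate 4 for each gene.

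Translational efficiency, the change in footprints relative to mRNA of the same mice, was tested in 1 model over both kinds of library. None of the 10 genes passed in any of the 5 comparisons, where 7.45% of 12097 genes passed for 5+3 on the BCAA-free diet, 0.00827% for the diets under 5+3 and for the interaction, and 0 for the other comparisons. For 5+3 on the BCAA-free diet, 2 of 10 had an unadjusted p under 0.05, where 29.8% of all genes did. They were mt-Nd5 (log2 -1.13 ± 0.37, SE, adjusted p = 0.0568) and mt-Co1 (log2 -0.98 ± 0.32, SE, adjusted p = 0.0585), and neither passed. limma-voom called 2. mt-Cytb followed (log2 -0.61 ± 0.30, SE, adjusted p = 0.171). The 7 genes outside the stretch had a median of -0.35, where the median of all genes was -0.11, and mt-Nd6 was at 0.16. In the other comparisons none of the 10 had an unadjusted p under 0.05, where 2.75% to 11.8% of all genes did, and limma-voom called none.

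Nuclear-encoded subunits of the same complexes were counted beside them. Of 71 of them, 5 rose and 2 fell in footprints with 5+3 on the BCAA-free diet, with a median log2 change of 0.07. These 7 of 71 (9.86%) stand beside 20.6% of all genes that changed, 8.76% upward and 11.9% downward. None of the 71 passed without the 4 mice that stood apart, where 0.852% of all genes rose and 1.54% fell. With single mice left out, 2 to 7 rose (2 without BCAA-free vehicle replicate 5) and 0 to 2 fell (0 without BCAA-free vehicle replicate 1, 4 or 5 or BCAA-free 5+3 replicate 1, 2, 5 or 6). The risers were in complexes III and V: the Rieske iron-sulfur protein Uqcrfs1 (log2 0.32 ± 0.09, SE, adjusted p = 0.0131), the ring subunits Atp5g3 (0.28 ± 0.08, adjusted p = 0.0112) and Atp5g2 (0.31 ± 0.08, adjusted p = 0.0124), and the catalytic-head subunits Atp5a1 (0.20 ± 0.07, adjusted p = 0.0424) and Atp5b (0.19 ± 0.07, adjusted p = 0.0481). The complex I subunits Ndufa1 (-0.35 ± 0.12, adjusted p = 0.0343) and Ndufa3 (-0.30 ± 0.10, adjusted p = 0.0389) fell. None of the 11 nuclear subunits of complex IV passed (median 0.04), whereas all 3 of its mtDNA subunits fell.

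In the other footprint comparisons, 3 of the 71 rose and 1 fell with 5+3 on the amino acid diet (5.63%, against 6.61% of all genes), among them Atp5b (log2 0.29 ± 0.08, SE, adjusted p = 0.0246) upward and Ndufa1 (-0.51 ± 0.14, adjusted p = 0.0272) downward. Uqcr10 of complex III alone differed between diets under vehicle (0.47 ± 0.12, adjusted p = 0.0383), where 2.04% of all genes did. Under 5+3, 8 were higher and 1 lower on the BCAA-free diet, led by Atp5g2 (0.55 ± 0.09, adjusted p = 0.000122). Over all genes, 12.5% were higher and 15.8% lower there. The number higher was 5 without amino acid 5+3 replicate 4 or BCAA-free 5+3 replicate 4, 5 or 7, and on the amino acid diet none rose with 5+3 without amino acid vehicle replicate 3 or amino acid 5+3 replicate 1, 2 or 3. None of the 71 passed in the interaction.

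In mRNA, 2 rose and 3 fell with 5+3 on the BCAA-free diet, Atp5b upward (1.01 ± 0.29, adjusted p = 0.0334) and Uqcrh of complex III downward (-1.18 ± 0.34, adjusted p = 0.0334), and none passed elsewhere. These 5 of 71 (7.04%) stand beside 8.56% of all genes. In translational efficiency 5 rose with 5+3 on the BCAA-free diet and none fell, with a median log2 change of 0.65; 7.04% passed, against 7.45% of all genes. Both counts moved with single mice. Without BCAA-free 5+3 replicate 7, 22 fell in mRNA and 28 rose in translational efficiency. None fell in mRNA, and none rose in translational efficiency, without BCAA-free vehicle replicate 1, 2 or 5 or BCAA-free 5+3 replicate 1, 2, 4 or 5. Without the 4 mice that stood apart, none of the 71 passed in either.

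Of the 56 nuclear factors that express mtDNA, 5 rose and 2 fell in footprints with 5+3 on the BCAA-free diet (12.5%, against 20.6% of all genes). None of them passed without the 4 mice that stood apart. Of 16 genes of mtDNA transcription and replication, the mitochondrial topoisomerase Top1mt rose in footprints (log2 0.49 ± 0.18, SE, adjusted p = 0.0495) and the transcription termination family member Mterf3 fell (-0.49 ± 0.14, adjusted p = 0.0156). Of 23 genes of RNA processing and stability, Slirp, which binds and stabilises mitochondrial mRNAs with Lrpprc, rose (0.38 ± 0.11, adjusted p = 0.0134), as did the tRNA-end processing enzyme Elac2 (0.33 ± 0.11, adjusted p = 0.0299). Of 17 translation factors and synthetases, the elongation factor Gfm1 (0.28 ± 0.09, adjusted p = 0.0245) and the isoleucyl-tRNA synthetase Iars2 (0.32 ± 0.10, adjusted p = 0.0233) rose, and the release factor Mtrf1l fell (-0.86 ± 0.22, adjusted p = 0.00756).

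Some of these factors passed between the diets under 5+3, where none of the 10 mtDNA genes did. Translation factors were lower on the BCAA-free diet in 5 of 17 cases and higher in 1. The elongation factor Tufm (log2 -0.53 ± 0.11, SE, adjusted p = 0.00111), the ribosome recycling factors Gfm2 (-0.77 ± 0.17, adjusted p = 0.00121) and Mrrf (-0.67 ± 0.18, adjusted p = 0.00563), and Mtrf1l (-0.97 ± 0.23, adjusted p = 0.00261) were among the lower. The catalytic subunit of the mtDNA polymerase, Polg, was lower (-0.58 ± 0.18, adjusted p = 0.0158), its accessory subunit Polg2 higher (1.08 ± 0.38, adjusted p = 0.0354) and the transcription factor Tfb2m higher (0.55 ± 0.14, adjusted p = 0.0056). Pnpt1 (-0.38 ± 0.12, adjusted p = 0.0195) and Lrpprc (-0.26 ± 0.10, adjusted p = 0.0411), of RNA turnover and stability, were lower. In all, 8 of the 56 were lower and 3 higher, beside 15.8% of all genes that were lower and 12.5% that were higher.

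With 5+3 on the amino acid diet, Slirp (log2 0.51 ± 0.12, SE, adjusted p = 0.0133) and Pnpt1 (0.43 ± 0.13, adjusted p = 0.0469) rose, and none of the transcription or translation factors passed. Mtrf1l was the only factor of these lists to pass in the interaction (-1.39 ± 0.33, adjusted p = 0.014), and it did not pass there without the 4 mice. In mRNA, with 5+3 on the BCAA-free diet, the mitochondrial poly(A) polymerase Mtpap rose (0.82 ± 0.25, adjusted p = 0.0453) and Gfm2 fell (-0.59 ± 0.17, adjusted p = 0.0358). In translational efficiency for the same comparison, Gfm2 was higher (0.92 ± 0.22, adjusted p = 0.0303) and Mrrf lower (-1.004 ± 0.31, adjusted p = 0.0497). None of these mRNA and translational efficiency calls was kept without the 4 mice.

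Genes whose footprint pattern over the 21 libraries was most like the mean of the 10 were picked by Pearson r of log2 CPM among 6034 genes. They were Dpp8 (r = 0.813), Ubn1 (0.794), Ttc7 (0.776), P2rx1 (0.765), Tsc22d4 (0.76) and Uhrf1bp1l (0.759). The most opposite were the rows AC165087.2 (-0.79) and AC165962.4 (-0.779) and the splicing factor Hnrnpa1 (-0.741). In mRNA, among 8410 genes, the most like were the intermediate filament gene Vim (0.819), Nkapd1 (0.809), the fatty acid carrier Fabp5 (0.801), the galectin gene Lgals1 (0.796), the complex I subunit Ndufb2 (0.784) and the complex IV assembly factor Cox20 (0.782), and the most opposite were Brf1 (-0.871), Tmem164 (-0.853) and Swap70 (-0.845). The mRNA mean of the 10 includes mt-Co2, mt-Co3 and mt-Atp6, whose mRNA values are uncertain, and the ranking was not repeated without them. The points share groups, libraries and scaling, so these values of r are descriptions.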

How the data were processed

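mRNA and ribosome footprints of 21 mice were measured in 42 libraries. The deposited tables hold raw counts per Ensembl gene, with no normalization; the values are whole numbers, and 0 columns lacked a sample. Tools named in the submitters' processing notes are featureCounts, STAR, Bowtie2, cutadapt and SAMtools, with the build GRCm38 (mm10). Not given in the sources used here were their versions and roles, the annotation, the strand setting and the treatment of multiply mapping reads. Of 55487 rows, 55141 (99.4%) matched a symbol, and all 37 mtDNA genes did. Positions and lengths are from RefSeq on GRCm38.

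Groups came from the sample labels. Tests used edgeR 4.0.16 in R 4.3.3 (filterByExpr with a minimum count of 10 and total of 15, TMM, robust quasi-likelihood test). Each kind of library had 1 fit over the 4 groups. Translational efficiency was tested over both kinds together, as the group by library kind interaction with mouse as blocking factor. P-values were adjusted over all genes (Benjamini-Hochberg), with a threshold of 0.05. Shares of mt-rRNA were compared by exact permutation tests in scipy 1.17.1. Alternatives used DESeq2 1.42.0, limma 3.58.1 (voom), other scalings, filters and libraries. The fits were tested on simulated data.

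The 10 genes, the gene lists and the tests were chosen with earlier results of these data known. Named beside the 10 genes were mt-Rnr1, mt-Rnr2, mt-Nd3, mt-Nd4l and mt-Atp8, up to 4 members past the threshold with the smallest adjusted p from each list, and the 6 most and 3 least similar genes with a mean of at least 10 CPM. Nuclear copies were rows within 5% of an mtDNA gene in every footprint library. Sampling noise was exceeded in all 47 within-group pairs of libraries (chi-square per degree of freedom of at least 34.1 in mRNA and 3.99 in footprints). P-values measure the spread between mice.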

Additional observations from a re-analysis of the deposited data

Results flagged for a closer look

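Of 88 groups of values looked at, 11 held a sample far from the rest by Dixon's test at the 95% level, where chance gives about 1 in 20. Amino acid vehicle replicate 5 stood high in mRNA for the 3 genes of the nearly empty stretch: mt-Co2 at 3.08 CPM (others 0.393 to 1.11), mt-Co3 at 3.55 (0.595 to 1.22) and mt-Atp6 at 2.30 (0.343 to 0.52). Amino acid 5+3 replicate 4 stood high in mRNA for mt-Cytb at 1565 CPM (others 568.2 to 665), mt-Co1 at 1261 (399 to 531) and mt-Atp6 at 1.66 (0.578 to 0.691). Amino acid 5+3 replicate 3 stood high in mt-rRNA, with 0.225% of mRNA counts (others 0.0716% to 0.0954%) and 8.36% of footprint counts (5.57% to 5.89%). The same mouse was high in footprints of mt-Co1 at 498 CPM (others 402 to 418) and of mt-Atp6 at 220.3 (169 to 177). BCAA-free vehicle replicate 1 was high in mRNA of mt-Nd2 at 373 CPM (others 158 to 205).

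The response of mt-Atp6 footprints to 5+3 differed between the diets by the interaction test in edgeR (log2 -0.60 ± 0.17, SE, adjusted p = 0.0367). Over the alternatives other than leaving out single mice its adjusted p reached 0.126, without the 4 mice that stood apart in mRNA.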

How the results depend on the processing

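The fall of footprints with 5+3 on the BCAA-free diet kept its direction for all 8 called genes in every alternative. The count was 5 without the 4 mice that stood apart in mRNA and 6 to 9 with single mice left out. mt-Nd5 lost its call without the 4 mice (adjusted p = 0.122), and mt-Nd1 and mt-Nd4 lost theirs there, under the replicate block and in 7 of 21 fits without a mouse each. For the diets under 5+3, footprints gave 1 call with no filter, without the 2 libraries of lowest total and with only the compared groups in the fit. Under vehicle they gave 1 call with DESeq2 and 2 with no filter or without the 2 libraries of lowest total, and 0 to 1 with single mice left out. The interaction gave 2 calls with DESeq2, no filter or mtDNA rows out of the scaling, 7 without the 2 libraries of lowest total, and 0 without the 4 mice; single mice left out gave 0 to 5. Translational efficiency with 5+3 on the BCAA-free diet gave 2 calls with limma-voom or no filter, and 0 to 2 without single mice: 2 without amino acid vehicle replicate 4, and 1 without amino acid vehicle replicate 3, amino acid 5+3 replicate 4 or BCAA-free 5+3 replicate 7. The cause of these shifts was not tested.

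The replicate numbers shared by groups pair no mice in the labels, and same-numbered mice deviated together little in the median (median r from -0.0847 to 0.217). The highest median was that of the 5+3 groups in mRNA, where 4 pairs had r from -0.445 to 0.455. With the replicate block the interaction gave 0 calls, and the mt-rRNA share of footprints under 5+3 differed between diets by 0.358 points in place of -0.05; for it, a denominator without pseudogene rows gave 0.287. The mt-rRNA share of mRNA differed between diets under vehicle by 0.0297 points without the 4 mice, in place of -0.04.

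With single mice left out, mt-rRNA differences in footprints ran from -2.39 to -1.74 points with 5+3 on the BCAA-free diet, passing (adjusted p = 0.0485) without BCAA-free vehicle replicate 5. They ran from -1.11 to 0.059 on the amino acid diet, changing sign without amino acid vehicle replicate 1 or 3. They ran from -0.32 to 0.613 for the diets under 5+3, changing sign without amino acid 5+3 replicate 3 or BCAA-free 5+3 replicate 2 or 6. In mRNA they ran from -0.107 to 0.00111 with 5+3 on the amino acid diet and from -0.0913 to 0.0311 for the diets under vehicle, changing sign without amino acid vehicle replicate 1, and from -0.0574 to 0.00818 for the diets under 5+3, changing sign without amino acid 5+3 replicate 3. Of the nuclear genes named, Atp5g2, Gfm2, Mrrf, Mtrf1l, Tufm and Tfb2m between the diets under 5+3, and Slirp and Ndufa1 for 5+3 on the amino acid diet, passed in all 8 alternatives; with single mice left out, Ndufa1 was lost in 4 of 21 fits (adjusted p up to 0.0927) and Slirp in 1 (0.0515). The calls of the other nuclear genes were each lost in at least 1. For 5+3 on the BCAA-free diet, calls among the 71 nuclear subunits ran in footprints from 0 to 6 upward, in mRNA from 0 to 7 upward (7 with DESeq2) and from 0 to 28 downward, and in translational efficiency from 0 to 38 upward; the 28 and the 38 were with the replicate block. Between the diets under 5+3, footprints gave 1 to 12 upward (1 with no filter). The mRNA values of mt-Co2, mt-Co3 and mt-Atp6 rest on means of 44.5, 47.5 and 31.2 counts per library, and the cause of these low counts was not tested.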

Other observations

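The 22 tRNA genes of mtDNA took 0.0736% ± 0.0655 (SD, n = 5) of footprint counts in amino acid vehicle mice, 0.0644% ± 0.0246 (n = 4) in amino acid 5+3, 0.0703% ± 0.012 (n = 5) in BCAA-free vehicle and 0.0496% ± 0.0109 (n = 7) in BCAA-free 5+3. Their ranges on the BCAA-free diet were 0.0589% to 0.0884% under vehicle and 0.0298% to 0.0604% after 5+3, which overlap at the edge. In mRNA libraries they took 0.0039% to 0.0286%. These shares were not tested.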
